A study of Mus musculus with 12 samples.

Results

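The Paneth cell alpha-defensins and the antimicrobial effectors made beside them were followed through the jejunum of A/J and C57BL/6J (B6) mice after ligation of the bile duct. Members were taken by gene symbol: every probe set whose platform symbols were all alpha-defensins (Defa followed by a number or a hyphen), Lyz1, Ang4, Mptx1, Mptx2, Mmp7, Pla2g2a, Itln1, Reg3a, Reg3b, Reg3g, Reg1 or Reg4. This gave 19 of the 35556 probe sets: 8 for alpha-defensins and 11 for the other effectors. A total of 11 of the 12 other genes had a probe set; none carried the symbol Mptx2. Of the 8 defensin probe sets, only Defa24 and Defa39 had a single symbol, and the other 6 carried 4 to 9 symbols each, over 17 defensin symbols in all. No probe set mixed a member with another gene.

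The study asked which jejunal genes respond to cholestasis and whether 2 inbred strains respond alike. Male A/J and B6 mice, aged 8 weeks, had the common bile duct clipped shut (common bile duct ligation, CBDL) or were sham-operated, which left the duct undissected and open, and jejunum was taken on day 7. Total RNA was hybridized to 12 Affymetrix arrays, 3 for each combination of strain and operation. No group carried a transgene or engineered allele, and the labels do not say whether each array held 1 mouse or a pool, so each p-value reflects only how these arrays spread.

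Paneth cells sit at the base of the small intestinal crypts and release granules into the lumen. Alpha-defensins are cationic peptides that disrupt bacterial membranes, and in the mouse they are cut from inactive precursors by matrilysin, the product of Mmp7. Lysozyme, angiogenin 4, phospholipase A2 and the C-type lectins of the Reg3 family act beside them, and Reg3b and Reg3g are also made by enterocytes, where bacterial signals and interleukin 22 acting through Stat3 are known to raise them.

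All values are log2 signals from robust multi-array averaging (RMA), so a difference of 1 is a doubling. Array medians lay between 5.36 and 5.51, and the mean signal of every member was above the 30% dimmest probe sets. Differences were tested with limma on the 12 arrays together, and called where the Benjamini-Hochberg adjusted p, taken over the whole array, was below 0.05. Enterocyte markers fitted the labelled tissue, with a list mean of 12.4 to 12.6 on every array. Of the 3 strain markers H2-Ea, Nnt and Glo1, all 3 were called higher in A/J, both in sham and in CBDL mice. A list of 12 hepatocyte genes moved with the groups: its mean was 5.30 to 5.92 in A/J sham, 8.95 to 9.49 in A/J CBDL, 6.85 to 8.99 in B6 sham and 8.96 to 9.22 in B6 CBDL. The 10 exocrine pancreas genes measured, which would show tissue that makes Reg1 and other Reg proteins, stayed at a list mean of 4.65 to 5.01, and the 11 macrophage and neutrophil genes at 5.68 to 5.97.

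The Reg3 genes encode secreted lectins that bind bacterial cell walls, and they lie in a cluster on chromosome 6. The 250 bases before the start of Reg3b, Reg3g and Reg3a are shown because the CBDL differences of these genes were unlike in A/J mice. The 3 genes were not tested against each other. They come from RefSeq on GRCm38.p6, at chr6:78370635-78370884 (plus strand), chr6:78468875-78469124 (minus strand) and chr6:78380459-78380708 (plus strand). Capitals mark matches, on either strand, to the Stat motif TTCNNNGAA and to the Tcf motif ATCAAAG, which reads CTTTGAT on the other strand.
Reg3b: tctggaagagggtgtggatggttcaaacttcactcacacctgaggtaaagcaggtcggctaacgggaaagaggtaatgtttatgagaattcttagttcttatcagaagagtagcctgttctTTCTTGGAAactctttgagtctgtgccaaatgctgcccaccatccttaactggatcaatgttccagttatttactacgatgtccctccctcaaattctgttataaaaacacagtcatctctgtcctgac
Reg3g: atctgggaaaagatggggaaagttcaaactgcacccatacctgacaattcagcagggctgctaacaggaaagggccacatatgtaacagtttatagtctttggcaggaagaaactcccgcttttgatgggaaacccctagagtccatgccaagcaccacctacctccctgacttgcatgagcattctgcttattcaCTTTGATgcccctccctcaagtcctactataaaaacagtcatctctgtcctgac
Reg3a: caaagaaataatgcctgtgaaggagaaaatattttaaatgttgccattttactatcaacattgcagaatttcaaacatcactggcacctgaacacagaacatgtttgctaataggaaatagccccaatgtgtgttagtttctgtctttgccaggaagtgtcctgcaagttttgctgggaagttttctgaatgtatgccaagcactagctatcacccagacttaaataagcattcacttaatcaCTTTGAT
The windows of Reg3b and Reg3g had 70% of bases identical, those of Reg3g and Reg3a 61.2%, and those of Reg3b and Reg3a 54.4%. Reg3b held 1 match to the Stat motif and Reg3g and Reg3a none, against 7.02% of all 32851 promoter windows. Reg3g and Reg3a held 1 match each to the Tcf motif and Reg3b none, against 3.21% of all windows. A match describes the letters of the window and no more.

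Reg3b was higher after CBDL in both strains. Its signal was 11.68, 10.94 and 11.11 in A/J sham and 13.31, 13.33 and 12.69 in A/J CBDL. In B6 mice it was 11.60, 12.14 and 9.69 in sham and 13.28, 13.17 and 12.84 in CBDL. All 6 CBDL arrays lay above all 6 sham arrays, a pattern that 0.920% of all probe sets showed, and B6 sham replicate 3 lay well below the other shams. Averaged over the strains, Reg3b rose by 1.91 (standard error 0.35, 3.75-fold; limma adjusted p = 0.0231). It was the only 1 of the 19 members called in that comparison, in which 1.74% of all probe sets were called; a further 10 members had an unadjusted p under 0.05, a level reached by 14.1% of all probe sets.

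The 2 strains had nearly the same Reg3b difference, 1.86 (standard error 0.50, adjusted p = 0.124) in A/J and 1.95 (standard error 0.50, adjusted p = 0.241) in B6 mice. The interaction, the A/J effect minus the B6 effect, was -0.09 with a 95% interval of -1.64 to 1.45. The averaged call was lost without any 1 of 6 arrays (A/J sham replicate 2, A/J CBDL replicates 1 and 2, and B6 CBDL replicates 1, 2 and 3), with an adjusted p of 0.0516 to 0.0709 and a difference of 1.83 to 1.97. Without B6 sham replicate 3 the difference in B6 mice was 1.23, and the one in A/J mice was then called (adjusted p = 0.00505). The hepatocyte list mean was higher on every A/J CBDL array than on every A/J sham array and overlapped between the B6 groups, and its part in the Reg3b result was not tested.

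Reg3g, a lectin that kills Gram-positive bacteria, had no called difference. Its signal was 11.12, 11.26 and 11.00 in A/J sham, 12.26, 11.59 and 11.03 in A/J CBDL, 10.81, 11.06 and 9.49 in B6 sham and 12.61, 12.23 and 11.81 in B6 CBDL. The B6 groups did not overlap and the A/J groups did. The difference was 0.50 (standard error 0.40) in A/J and 1.76 (standard error 0.40, 3.39-fold, adjusted p = 0.177) in B6 mice, and 1.13 (standard error 0.28, adjusted p = 0.0841) averaged. The interaction was -1.26 (standard error 0.57, 95% interval -2.51 to -0.01), and its adjusted p was 0.722.

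Reg3a was lower after CBDL in A/J mice and level in B6 mice, again without a call here. The paper's appendix, from its own processing, lists the same probe set as lower in A/J CBDL than in sham, with an FDR below 0.05. It was 11.49, 11.24 and 11.16 in A/J sham, 10.14, 10.07 and 10.82 in A/J CBDL, 10.60, 10.95 and 11.12 in B6 sham and 10.58, 11.05 and 11.00 in B6 CBDL. All A/J CBDL arrays lay below all A/J sham arrays, as 9.07% of all probe sets did, while the B6 groups overlapped throughout. The A/J sham arrays also lay above all B6 sham arrays, as 9.15% of all probe sets did. That strain difference was 0.40 (standard error 0.21, limma adjusted p = 0.398) and was not called. A/J CBDL overlapped both B6 groups. The difference was -0.95 (standard error 0.21, adjusted p = 0.075) in A/J and -0.01 (standard error 0.21) in B6 mice; without A/J CBDL replicate 3 it was -1.19 and called in A/J (adjusted p = 0.0251). The interaction of -0.94 (standard error 0.30) had an unadjusted p of 0.00998 and an adjusted p of 0.624, and 6.88% of all probe sets had an unadjusted interaction p under 0.05. In A/J mice the differences of Reg3b and Reg3a from sham had opposite signs, and neither was called in the main fit.

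Reg1, a secreted lectin of the same chromosomal cluster, had the largest residual SD of the members, 0.89, although the widest range in 1 group was that of Reg3b (2.45, in B6 sham). Its signal ran from 10.21 to 12.39 in A/J sham, 11.05 to 12.45 in A/J CBDL, 10.30 to 11.96 in B6 sham and 9.63 to 11.24 in B6 CBDL. Its CBDL difference was 0.70 (95% interval -0.67 to 2.08) in A/J and -0.58 (-1.95 to 0.80) in B6 mice, intervals that hold a doubling in A/J and a halving in B6 mice. Reg4, on chromosome 3 and made mostly by enteroendocrine and goblet cells, was steady by comparison. Over the 12 arrays Reg4 lay between 10.30 and 10.81, and its difference was 0.11 (95% interval -0.13 to 0.34) in A/J and -0.07 (-0.31 to 0.16) in B6 mice.

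**Figure D1:**
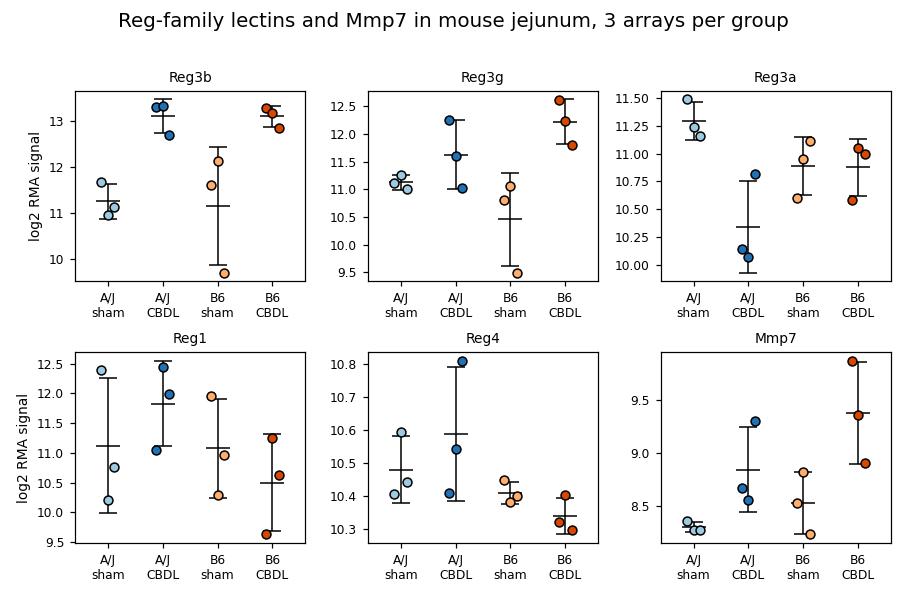
Each panel plots the log2 RMA signal of 1 gene (vertical axis, own scale) in the 4 groups; points are arrays, the bar is the mean and the whiskers are 1 SD (n = 3). All Reg3b points after CBDL lie above all sham points. Reg3a is highest by mean in A/J sham and lowest in A/J CBDL, which overlaps the B6 groups. Within a group Reg3b spreads by up to 2.45 and Reg1 by up to 2.18.

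Mmp7, the protease that activates mouse alpha-defensins, followed Reg3b in direction. It was 8.36, 8.28 and 8.28 in A/J sham, 8.67, 8.56 and 9.30 in A/J CBDL, 8.53, 8.82 and 8.24 in B6 sham and 9.86, 9.36 and 8.90 in B6 CBDL. CBDL and sham arrays did not overlap within either strain. The difference was 0.54 (standard error 0.25, adjusted p = 0.363) in A/J and 0.84 (standard error 0.25, adjusted p = 0.344) in B6 mice, and 0.69 (standard error 0.18, 1.61-fold, adjusted p = 0.0919) averaged, so none was called.

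Within each strain, 0 of the 19 members were called after CBDL by limma, against 0.818% of all probe sets in A/J and 0.0534% in B6 mice. The paper's appendix does list Reg3a as changed in A/J mice. It also lists Defa5, Gm10104, Gm14850 and Gm15315 as higher in A/J CBDL than in sham. Their probe sets are numbered among those of the defensin members but carry no platform symbol, so they are not members. At an unadjusted p under 0.05 there were 7 members in A/J mice (14.2% of all probe sets) and 4 in B6 mice (7.64%). With the limma alternative of array weights, which gives less weight to arrays that vary more, 4 members were called in A/J mice: Reg3b, Defa39 and probe sets 10570651 and 10570671. Calls over all probe sets also moved with the setting in A/J mice. They were 291 in the main fit and 190 to 1299 over the alternatives that kept every array of the comparison. Ranges did not overlap for 8 members in A/J mice, 7 of them higher, and for 4 in B6 mice, all higher. Of all probe sets, 17.1% and 15.5% did not overlap, and 8.04% and 7.89% did so on the higher side. The interaction called 0 of 19 members, with 2 (Reg3a and Reg3g) at an unadjusted p under 0.05; it called 0.0366% of all probe sets.

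Mptx1, a mucosal pentraxin that Paneth cells secrete, had the largest strain difference of the members. It was 8.52, 8.46 and 7.97 in A/J sham and 9.03, 8.71 and 8.98 in A/J CBDL, against 5.30, 5.59 and 5.34 in B6 sham and 5.63, 5.94 and 5.35 in B6 CBDL. Every A/J array lay more than 2 log2 units above every B6 array. The B6 signals lay near the array medians, and the deposited values hold no measure of background, so the folds between strains may be too small. It was higher in A/J by 7.50-fold in sham (log2 2.91, standard error 0.18, adjusted p = 2.28e-05) and by 9.63-fold in CBDL mice (log2 3.27, standard error 0.18, adjusted p = 1.11e-05). After CBDL it differed from sham by 0.59 (standard error 0.18, adjusted p = 0.174) in A/J, with no overlap, and by 0.23 (standard error 0.18) in B6 mice, where the level was low in both groups. The interaction was 0.36 (95% interval -0.21 to 0.93).

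Lyz1, the Paneth cell lysozyme that cleaves bacterial cell walls, was 12.92, 12.48 and 12.54 in A/J sham, 12.71, 12.59 and 13.01 in A/J CBDL, 12.90, 13.04 and 12.89 in B6 sham and 13.32, 13.21 and 12.96 in B6 CBDL. The strains overlapped, and the averaged difference of A/J from B6 was -0.35 (standard error 0.11, adjusted p = 0.0925); without A/J sham replicate 1 it was -0.42 and called (adjusted p = 0.0415). Its CBDL difference was 0.12 (95% interval -0.21 to 0.45) in A/J and 0.22 (-0.11 to 0.55) in B6 mice, so a doubling lay outside both intervals.

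Ang4, a bactericidal ribonuclease, ranged from 6.61 to 7.18 in A/J sham, 6.09 to 7.52 in A/J CBDL, 6.59 to 7.61 in B6 sham and 6.72 to 6.83 in B6 CBDL, and no group stood apart. Itln1, an intelectin that binds microbial sugars, ranged from 10.65 to 10.97, 10.37 to 11.43, 10.96 to 11.42 and 10.71 to 11.41 in the same order. Pla2g2a, a phospholipase that attacks bacterial membranes and is annotated by RefSeq as a transcribed pseudogene in the B6 assembly, was 6.24, 6.41 and 6.06 in A/J sham and 6.81, 6.58 and 6.11 in A/J CBDL. In B6 mice Pla2g2a was 6.49, 6.33 and 6.37 in sham and 7.60, 7.07 and 6.55 in CBDL, a difference of 0.68 without overlap (standard error 0.24, adjusted p = 0.478). None of these 3 genes was called in any comparison.

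**Figure D2:**
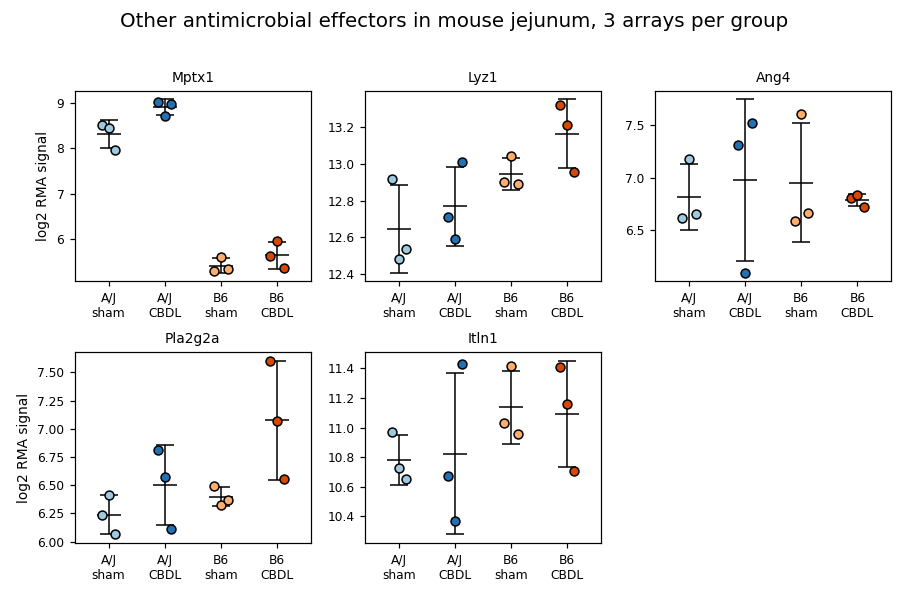
Each panel plots the log2 RMA signal of 1 effector gene (vertical axis, own scale) in the 4 groups; points are arrays, the bar is the mean and the whiskers are 1 SD (n = 3). Mptx1 separates the strains, with A/J arrays from 7.97 to 9.03 and B6 arrays from 5.30 to 5.94, while Lyz1, Ang4 and Itln1 overlap.

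Of the 8 alpha-defensin probe sets, 2 were called lower in A/J than in B6 mice within each operation, and 6 averaged over operations. Over all probe sets, 1.29% were called lower in sham, 1.22% in CBDL mice and 3.12% averaged. The defensin genes lie on chromosome 8, and 8 of the 17 defensin symbols had a promoter window in RefSeq. Defa24 and Defa39 had no window. Defa21 and Defa23 are shown because some shared probe sets that carry them were called lower in A/J averaged over operations. Their windows also share a layout. These windows lie at chr8:21025295-21025544 (plus strand) and chr8:21054790-21055039 (plus strand) on GRCm38.p6. Capitals mark the Tcf motif ATCAAAG.
Defa21: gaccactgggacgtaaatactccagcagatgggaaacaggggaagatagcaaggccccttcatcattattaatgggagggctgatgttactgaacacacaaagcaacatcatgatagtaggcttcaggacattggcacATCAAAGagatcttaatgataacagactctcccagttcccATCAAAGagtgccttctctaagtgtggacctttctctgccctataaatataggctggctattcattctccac
Defa23: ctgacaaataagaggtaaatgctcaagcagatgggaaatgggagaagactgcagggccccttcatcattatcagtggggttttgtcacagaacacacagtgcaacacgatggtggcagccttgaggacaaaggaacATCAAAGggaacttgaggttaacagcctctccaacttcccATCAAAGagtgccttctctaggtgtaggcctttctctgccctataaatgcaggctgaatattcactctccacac
These 2 windows had 79.6% of bases identical, and pairs among the 8 defensin windows ran from 69.6% to 100%. The motif, searched on both strands, was found in all 8 defensin windows and at least 2 times in 7 of them, against 3.21% of all windows with a match. The letters TATAAA stood in 7 of the 8, against 12.4% of all windows.

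Defa39 and Defa24, the single-symbol defensins, were called lower in A/J mice with either operation. Defa39 was 9.88, 9.17 and 9.46 in A/J sham and 9.90, 10.18 and 10.21 in A/J CBDL, against 11.59, 11.91 and 11.57 in B6 sham and 11.78, 11.89 and 11.57 in B6 CBDL. Defa24 was 11.33, 11.21 and 11.16 in A/J sham and 11.46, 11.11 and 11.60 in A/J CBDL, against 12.39, 12.61 and 12.33 in B6 sham and 12.59, 12.47 and 12.31 in B6 CBDL. No A/J array reached a B6 array for either gene.

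Defa39 was lower in A/J by 4.55-fold in sham (log2 -2.18, standard error 0.18, adjusted p = 0.000136) and by 3.14-fold in CBDL mice (log2 -1.65, standard error 0.18, adjusted p = 0.000958). Defa24 was lower by 2.31-fold in sham (log2 -1.21, standard error 0.14, adjusted p = 0.00114) and by 2.09-fold in CBDL mice (log2 -1.06, standard error 0.14, adjusted p = 0.00275). With Mptx1 they were the 3 members of 19 called between the strains in sham mice, where 1.87% of all probe sets were called, and the 3 called in CBDL mice, where 1.78% were. The array was designed on the B6 reference genome, so a lower defensin level in A/J mice and a poorer match of A/J transcripts to the probes cannot be told apart. In whole jejunum, fewer Paneth cells and less RNA per Paneth cell cannot be told apart either.

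The 6 shared probe sets lay lower in A/J too, by less. Probe set 10570651 (Defa21, Defa22, Defa23 and Defa31) was 9.47, 9.02 and 9.13 in A/J sham, 9.78, 9.67 and 9.95 in A/J CBDL, 9.73, 10.43 and 9.72 in B6 sham and 10.24, 10.05 and 10.08 in B6 CBDL. Probe set 10570671, which adds Defa2, Defa20, Defa26, Defa32 and Defa33 to those symbols, was 9.60, 9.19 and 9.30 in A/J sham, 9.90, 9.79 and 10.09 in A/J CBDL, 9.86, 10.48 and 9.87 in B6 sham and 10.27, 10.16 and 10.11 in B6 CBDL. In both, A/J sham lay below the other 3 groups, and A/J CBDL reached up to the lower B6 sham arrays.

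Probe set 10570703 (Defa25, Defa27, Defa28 and Defa-ps1) was 9.68, 9.72 and 9.56 in A/J sham, 9.98, 9.63 and 10.11 in A/J CBDL, 10.03, 10.28 and 10.12 in B6 sham and 10.31, 10.41 and 10.26 in B6 CBDL. Probe set 10570723, 1 of 3 with the same 8 symbols (those 4 with Defa3, Defa17, Defa23 and Defa31), was 10.19, 10.25 and 10.19 in A/J sham, 10.54, 10.28 and 10.62 in A/J CBDL, 10.50, 10.73 and 10.58 in B6 sham and 10.75, 10.84 and 10.72 in B6 CBDL. Within either operation, no A/J array of these probe sets reached a B6 array. The remaining 2 with those 8 symbols, 10570663 and 10570700, ranged from 10.92 to 11.34 and from 11.23 to 11.64, and their averaged strain differences of -0.19 and -0.15 were not called.

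Averaged over operations, 7 of the 19 members were called between the strains, against 4.63% of all probe sets: Mptx1 higher in A/J (1.51% of all probe sets were called higher), and 6 defensin probe sets lower (3.12% lower). Of those 6, Defa39 had a difference of -1.92 (adjusted p = 1.17e-05) and Defa24 one of -1.13 (adjusted p = 7.02e-05). Probe set 10570703 had -0.45 (standard error 0.09, adjusted p = 0.0154) and 10570723 had -0.34 (standard error 0.07, adjusted p = 0.0249). Probe sets 10570651 and 10570671 had -0.54 (standard error 0.13, adjusted p = 0.0441) and -0.48 (standard error 0.12, adjusted p = 0.0493). The count was 4 without A/J sham replicate 2, B6 CBDL replicate 1 or B6 CBDL replicate 2; in each case Mptx1, Defa39, Defa24 and 10570703 were the 4 called. Over the 18 alternatives, the call of 10570703 held in 18, that of 10570723 in 12, that of 10570651 in 8 and that of 10570671 in 5. Sharing symbols, these probe sets are not independent of each other.

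In sham mice all 8 defensin probe sets lay below B6 with no overlap, as 9.53% of all probe sets did, and in CBDL mice 6 of 8 did, against 11.3%. Their median difference was -0.60 in sham and -0.30 in CBDL mice, beside 0.01 over all probe sets in each. After CBDL all 8 had a difference above zero in A/J mice, from 0.14 to 0.60 with a median of 0.26 and a range clear of sham for 4, as 8.04% of all probe sets had. In B6 mice all 8 were above zero too, from 0.01 to 0.18 with a median of 0.11, and all 8 overlapped sham. Of all probe sets, 47.6% were above zero in A/J and 49.3% in B6 mice.

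Markers of the lower gut were read beside the defensins, and did not all move one way. Car1, a carbonic anhydrase of the lower bowel, was 4.5, 4.7 and 4.0 in A/J sham, 7.8, 7.9 and 7.5 in A/J CBDL, 7.9, 10.3 and 6.6 in B6 sham and 6.4, 7.2 and 7.6 in B6 CBDL. Aqp8, a water channel of the colon, was 7.26, 6.92 and 6.73 in A/J sham, 5.50, 5.35 and 5.60 in A/J CBDL, 5.49, 5.56 and 6.06 in B6 sham and 5.49, 5.88 and 5.87 in B6 CBDL. Of the 8 ileum and colon genes measured, 2 were called between the shams, Car1 lower in A/J (log2 -3.88, adjusted p = 0.0159) and Aqp8 higher (log2 1.27, adjusted p = 0.00525). After CBDL in A/J mice 1 of the 8 was called, Aqp8 lower (log2 -1.48, adjusted p = 0.00547), and their median difference was -0.15. Fabp6, the ileal bile acid binding protein, was 4.66, 4.07 and 4.28 in A/J sham and 5.23, 5.73 and 5.41 in A/J CBDL, with no overlap and no call (log2 1.12, adjusted p = 0.186), and it ran from 4.53 to 5.94 in B6 mice. Slc10a2, a bile acid transporter, was 4.03, 4.40 and 4.34 in A/J sham and 5.69, 5.38 and 5.15 in A/J CBDL. It too had no overlap and no call (log2 1.15, adjusted p = 0.0703), although the paper's appendix lists it as higher in A/J CBDL. In B6 mice it ran from 4.44 to 5.46. The mean of the 8 genes was 5.75 to 5.98 in A/J sham, 6.26 to 6.37 in A/J CBDL, 6.06 to 6.78 in B6 sham and 5.96 to 6.34 in B6 CBDL.

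Within groups, Car1 and the defensins had no common order. The array with the highest Car1 was the highest in all 8 defensin probe sets in B6 sham (replicate 2), but the lowest in 7 of 8 in A/J CBDL (replicate 2) and in 7 of 8 in B6 CBDL (replicate 3). In A/J sham it was the highest in 2 and the lowest in 4 of 8 (replicate 2). The part of gut position in the defensin differences was not tested.

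**Figure D3:**
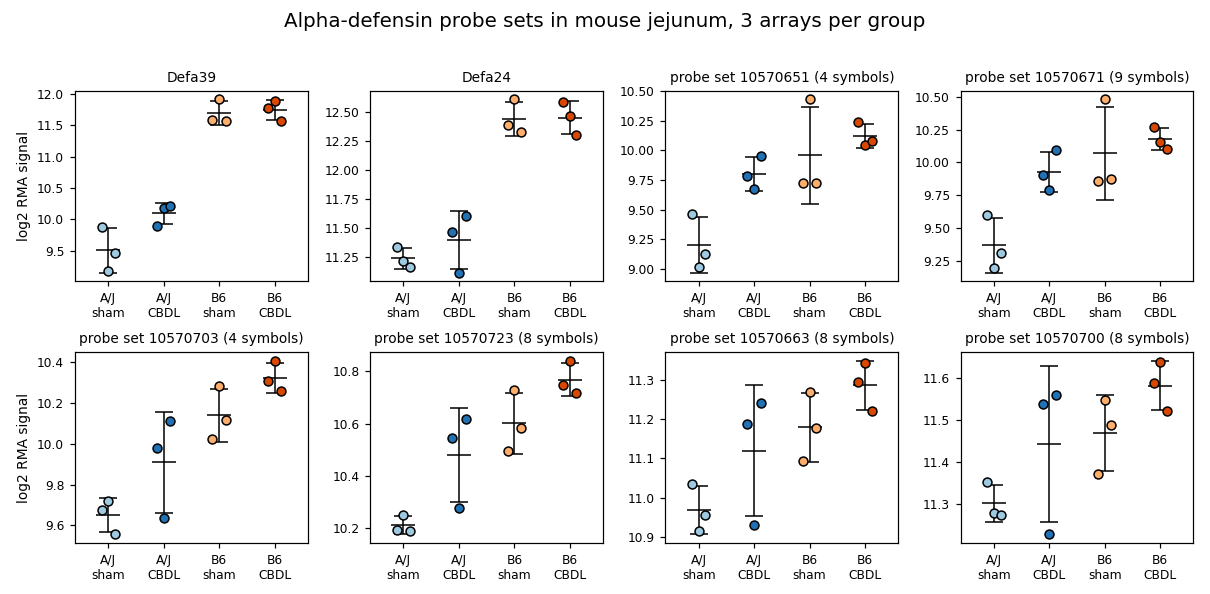
Each panel plots the log2 RMA signal of 1 alpha-defensin probe set (vertical axis, own scale) in the 4 groups; points are arrays, the bar is the mean and the whiskers are 1 SD (n = 3), and the title gives the number of symbols where there are several. Panels run from the largest averaged strain difference (Defa39, -1.92) to the smallest (10570700, -0.15), and A/J sham is lowest by mean in each.

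Genes outside the members were read beside these values. Of 20 other Paneth cell genes, among them the transcription factors Sox9 and Atoh1 and the secretory factor Xbp1, 0 were called by limma in any of the 7 comparisons, and their median difference of A/J from B6 was 0.08 in sham and -0.07 in CBDL mice. Sox9 differed between the strains by -0.05 in sham and -0.07 in CBDL mice. Atoh1 and Spdef stood on the goblet cell list too, and Lrrk2 and Egf lay below the array medians. Paneth cell content was therefore not tested by this list. Of 25 other antimicrobial and lectin genes, 2 were called higher after CBDL in A/J mice, 1 in B6 mice and 3 on average, and 0 lower. Lcn2, which withholds iron from bacteria, differed from sham by 3.28 (standard error 0.41, adjusted p = 0.00678) in A/J and by 3.02 (standard error 0.41, adjusted p = 0.0499) in B6 mice, the same direction as Reg3b. Saa1 and Saa2, acute-phase proteins that the liver also makes, were called on average at 2.59 and 2.87. Lypd8, a protein that keeps flagellated bacteria off the mucosa, had an averaged difference of -0.54 in A/J from B6 (adjusted p = 0.0148).

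Of 18 measured genes upstream of the Reg3 lectins, 1 was called after CBDL in A/J mice and 0 in B6 mice. Il22 and Tlr5 were on the list too, but neither had a probe set with that symbol alone. Interleukin 22 itself was therefore not read. Nr1d1, a clock repressor, fell by 1.72 in A/J mice (standard error 0.18, adjusted p = 0.00298), and its difference in B6 mice was -0.79 (adjusted p = 0.186). Il22ra1, the epithelial receptor chain for interleukin 22, was 0.67 higher in A/J CBDL than in B6 CBDL (standard error 0.13, adjusted p = 0.0281), while Stat3 differed after CBDL by 0.08 in A/J and 0.21 in B6 mice, neither called. In sham mice Il22ra1 differed between the strains by -0.04 (adjusted p = 0.917). Its CBDL difference was 0.63 in A/J (standard error 0.13, adjusted p = 0.0573) and -0.08 in B6 mice, neither called here. The paper's appendix lists Il22ra1 as higher in A/J CBDL.

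**Figure D4:**
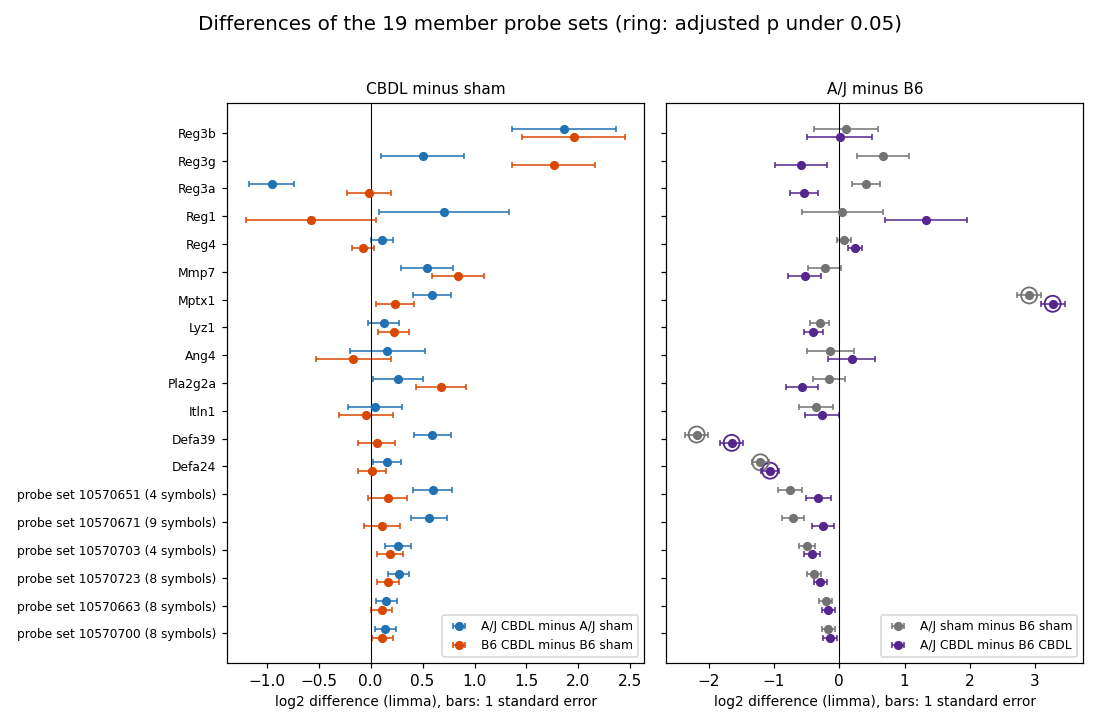
Points are log2 differences of the 19 member probe sets from limma (horizontal axis) with 1 standard error; the left panel gives CBDL minus sham in A/J and B6 mice, the right panel A/J minus B6 in sham and CBDL mice, and rings mark an adjusted p under 0.05. No ring stands in the left panel, where Reg3b has 1.86 and 1.95, and Mptx1, Defa39 and Defa24 are ringed in the right panel.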

How the data were processed

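Total RNA from 12 jejunum samples was measured on Affymetrix arrays. The authors deposited log2 values made by RMA in the Affymetrix Expression Console, per the labels; the paper's methods name GCRMA and another array type, with no version given in the sources used here. These values were used unchanged, and gene symbols came from the platform table. A linear model of the 4 groups was fitted over 12 arrays and 35556 probe sets by limma 3.58.1 (lmFit and eBayes) in R 4.3.3, after tests on simulated data. It gave 7 comparisons: the CBDL effect within A/J and within B6, the strain difference for each operation, the interaction and the 2 averages. The members, gene lists and tests were chosen with earlier results of these data known. Members that were called and the single-symbol effectors are given by array, other genes by the brightest probe set, with up to 4 called per list. Sox9, Stat3, Car1, Fabp6 and Slc10a2 stand as markers. Ileum and colon, duodenum and jejunum, goblet cell, enterocyte, pancreas, hepatocyte and leukocyte lists were also read. Among the 9 goblet cell genes, Agr2 was lower in A/J sham, and the 8 duodenum and jejunum genes had 1 call between strains in each operation, Adh6a. Alternatives were quantile normalization, median subtraction, only the arrays compared, no dim probe sets (the lowest 30%), a replicate block, array weights, a trended robust prior, single-symbol members and each array left out. Promoter windows came from RefSeq on GRCm38.p6. The 3 arrays per group limit precision.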

Additional observations from a re-analysis of the deposited data

How the results depend on the processing

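The calls of Mptx1, Defa39 and Defa24 between the strains, in sham, in CBDL and on average, held in every alternative run. Their log2 differences ran from 2.81 to 3.42, from -2.37 to -1.55 and from -1.27 to -0.92. No called member changed sign. The number of members called in A/J mice after CBDL was 0, and 1 with only the 6 arrays compared (Reg3b) and 4 with array weights. Between the shams it was 3, and 6 with array weights. For the averaged CBDL effect it was 1, and 5 with array weights (Reg3b, Mmp7, Defa39, 10570651 and 10570671). For the averaged strain difference it was 7, 1 higher and 6 lower, and 4 under quantile normalization (1 higher and 3 lower) and 3 with single-symbol members alone. With 1 array left out, the counts ran from 0 to 1 in A/J mice after CBDL, from 3 to 4 between the shams, from 0 to 2 for the averaged CBDL effect and from 4 to 8 for the averaged strain difference; the other 3 comparisons kept their counts. The replicate numbers do not pair the arrays (correlations of same-numbered deviations ran from -0.31 to 0.36), and with a replicate block the averaged CBDL effect had 2 calls (Reg3b and Reg3g) and the averaged strain difference 4, with no other member count changed. Over all probe sets, counts moved more: 291 calls in A/J mice after CBDL ranged from 90 to 1299, 19 in B6 mice from 1 to 167, 665 between the shams from 271 to 3044, 634 between the CBDL groups from 290 to 1261, 13 for the interaction from 0 to 28, 617 for the averaged CBDL effect from 269 to 1510 and 1648 for the averaged strain difference from 1010 to 4490. Scaling moved the share of higher calls over all probe sets, from 77.0% to 64.9% in A/J mice after CBDL and from 32.6% to 47.6% for the averaged strain difference under quantile normalization, and from 31.0% to 47.4% between the shams with medians subtracted; the causes were not tested. Scaling moved the median of all probe sets by under 0.1.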

Other observations

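The platform table leaves part of the defensin region without symbols. Of the 25 probe sets numbered from the first to the last of the run of 7 defensin members, 18 carried no symbol, and 14 of these had a mean log2 signal above 8, from 8.63 to 12.9, in 12 distinct profiles. Of these, 4 are listed in the paper's appendix as Defa5, Gm10104, Gm14850 and Gm15315, each higher in A/J CBDL than in sham. That appendix names genes that changed in these samples, so the values of these 4 are a description with no test. Defa5 read 11.26, 10.32 and 10.31 in A/J sham and 11.31, 12.05 and 11.21 in B6 sham, with CBDL arrays closer together: after ligation the mean was 11.96 ± 0.04 (SD, n = 3) for A/J and 11.90 ± 0.08 for B6 mice. The A/J means in sham and CBDL were 10.63 and 11.96 for Defa5, 10.89 and 12.05 for Gm10104, 10.55 and 11.93 for Gm14850 and 10.70 and 12.05 for Gm15315. In all 4, every A/J CBDL array lay above every A/J sham array, as 8.04% of all probe sets did, a separation that their choice from that list favoured. A/J sham was the lowest group by mean in all 4, and B6 sham replicate 2 was the highest of its group. None of the 4 is among the 19 members, which were taken by platform symbol.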
